A study of Homo sapiens with 4 samples.

Results

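The imprinted DLK1-MEG3 cluster lies on the long arm of human chromosome 14, in band 14q32. It was described here through the CpGs at chr14:100720000-100900000 of hg38, a stretch of 180 kb whose CpGs were all taken, whatever their values. The deposited tables listed 3529 CpGs there in at least 1 of 4 libraries, and each of them fell on one of the 3708 CpGs of the reference sequence. Of these, 3064 were listed in all 4 libraries and carry the values below, and the other 465 were not used in comparisons. Over the genome 23269121 CpGs were listed in all 4 libraries. Within the interval, 63 shared CpGs lay in the intergenic control region (chr14:100809500-100812500), 117 in the MEG3 promoter region (chr14:100824500-100827500) and 2884 in the rest. Both regions were taken as 1500 bp on either side of the point named for each, so their edges are not measured borders.

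The libraries came from HUDEP-2, a human erythroid precursor line made immortal that has adult haemoglobin, by whole-genome bisulfite sequencing, in which unmethylated C reads as T. There was 1 library per group, with no replicate. The non-differentiated library came from untreated cells. The other 3 came from cells differentiated for 4 days of growth and 2 days of maturation in 0.1% DMSO, which held no inhibitor in the DMSO library, a DNMT1 inhibitor in the next and an EED inhibitor in the last. The labels gave neither the names nor the doses of the compounds. Cells with either inhibitor raised fetal haemoglobin, per the labels. Each comparison therefore set 1 library against 1 other, and every test below compares reads of libraries, not conditions.

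At an imprinted locus the parental chromosomes differ in DNA methylation and in which genes they express. In this cluster the intergenic control region is methylated on the paternal chromosome in the germline, and the MEG3 promoter acquires paternal methylation later. DLK1, which encodes a membrane protein of the Notch ligand family, and RTL1, a gene derived from a retrotransposon, are expressed from the paternal chromosome. MEG3, a long non-coding RNA, and the microRNAs downstream of it are expressed from the maternal chromosome. DNMT1 copies methylation onto new DNA, and EED is a subunit of Polycomb repressive complex 2. In the files the parental chromosomes were not told apart, so a level is an average over both.

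The following windows of hg38, read on the plus strand, are shown because the level kept with the DNMT1 inhibitor in each of the 3 was above that of the rest of the interval. Capitals mark the CpGs. The first is the centre of the intergenic control region (chr14:100810850-100811149), the second the promoter window that RefSeq (GRCh38.p14) gives for MEG3 (chr14:100825858-100826157), and the third a stretch of the RTL1 coding sequence that holds the microRNA gene MIR127 on the opposite strand (chr14:100882877-100883176). The promoter of DLK1 is named only.
Intergenic control region: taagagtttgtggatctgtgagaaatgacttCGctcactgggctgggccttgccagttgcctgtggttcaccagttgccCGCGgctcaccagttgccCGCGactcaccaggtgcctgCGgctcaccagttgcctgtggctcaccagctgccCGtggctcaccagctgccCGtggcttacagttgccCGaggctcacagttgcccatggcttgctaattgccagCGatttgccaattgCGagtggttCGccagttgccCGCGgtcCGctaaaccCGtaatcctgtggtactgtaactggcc
MEG3 promoter: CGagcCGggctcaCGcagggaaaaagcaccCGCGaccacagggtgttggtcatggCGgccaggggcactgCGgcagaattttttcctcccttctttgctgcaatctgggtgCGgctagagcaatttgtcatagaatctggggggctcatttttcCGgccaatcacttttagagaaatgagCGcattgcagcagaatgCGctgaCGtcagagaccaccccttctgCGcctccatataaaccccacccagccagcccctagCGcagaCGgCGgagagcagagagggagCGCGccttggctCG
RTL1 coding sequence: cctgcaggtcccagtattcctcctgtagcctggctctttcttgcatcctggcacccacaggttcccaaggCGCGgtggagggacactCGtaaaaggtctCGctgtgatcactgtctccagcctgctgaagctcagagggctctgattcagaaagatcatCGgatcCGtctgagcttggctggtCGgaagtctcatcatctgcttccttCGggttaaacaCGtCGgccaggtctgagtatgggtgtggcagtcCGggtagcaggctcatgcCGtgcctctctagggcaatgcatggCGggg

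The first window is built from short repeats. The word CAGTTGCC occurred 7 times on its plus strand, and of 600 adjoining windows of 300 bp that cover the interval 6 held it at all and 1 held it at least 3 times. All 16 CpGs of the first window were shared, as were 16 of the 19 in the MEG3 promoter window and all 13 in the RTL1 window.

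The 4 libraries listed 24689329 to 24971588 CpGs each, at a mean coverage of 27.2 to 29.7 reads. Shared CpGs of the interval had a mean of 22.4 to 24.8 reads, about 0.80 of the genome's mean in every library. Coverage was thinner still in the MEG3 promoter region, with 17.6 to 20.9 reads per CpG. As a check of the cell label, promoters of 9 erythroid genes and of 10 genes of other blood cells were read in DMSO. Of the erythroid promoters 2 were at or under 5%, those of KLF1 and EPB42, and none of the 10 other promoters was that low. The 9 erythroid promoters ran from 2.12 to 67.9%, highest at ALAS2, with a median of 31.3%. The 10 others ran from 18.7 to 78.2%, with a median of 56.8%, so the 2 lists overlapped. Methylation is not expression, so this is a limited check.

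The intergenic control region was near 50% methylated in the 3 libraries without the DNMT1 inhibitor, and so was the interval around it. Its level was 54.4% in non-differentiated cells, 49.9% in DMSO, 29.3% under DNMT1 inhibition and 52.1% under EED inhibition, from 1489 to 1784 reads. The 95% Wilson interval was 47.5 to 52.4% in DMSO and 27.0 to 31.6% under DNMT1 inhibition. These intervals cover counting error only, and PCR copies of a molecule are not independent of it. The region overlaps no annotated exon and lies inside introns of long annotated MEG3 isoforms. The MEG3 promoter region, which 15 annotated exons overlap, was at 47.6% in non-differentiated cells, 46.2% in DMSO, 22.9% under DNMT1 inhibition and 40.7% under EED inhibition, from 2054 to 2448 reads. The rest of the interval was at 54.8%, 53.9%, 16.1% and 52.7% in the same order. Genome-wide, the levels were 61.7%, 60.3%, 16.8% and 59.3%.

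An average near 50% therefore did not by itself set the control regions apart, though that of the MEG3 promoter region was below the rest. Within each library the control regions were compared with the rest on their reads, with Fisher's exact test (two-sided) and p-values adjusted over 8 tests with a threshold of 0.01. By this exact test the intergenic control region differed from the rest by -0.336 points in non-differentiated cells (adjusted p = 0.803), -0.535 points under EED inhibition (adjusted p = 0.761) and -3.98 points in DMSO (adjusted p = 0.00235). The sign in those 3 libraries turned with a narrower region, to 5.52 points in non-differentiated cells, 2.86 in DMSO and 4.54 under EED inhibition when only 1000 bp on either side were taken. By the exact test these had an adjusted p of 0.000134, 0.0584 and 0.000861, so that in DMSO alone did not pass. At 2500 bp the values were -3.72, -3.51 and -2.31 points (exact test, adjusted p = 0.000506, 0.00144 and 0.0322). The result therefore depended on the width. In DMSO the difference was 0.398 points at a minimum of 20 reads, and with every CpG listed in the library it was -2.63 points and did not pass (exact test, adjusted p = 0.0492). At 1500 bp only the difference in DMSO had passed among the libraries without the DNMT1 inhibitor. With that inhibitor the intergenic control region stood 13.2 points above the rest (95% interval 10.9 to 15.6, exact test, adjusted p = 2.61e-35).

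In the same comparison the MEG3 promoter region was below the rest in the 3 libraries without the DNMT1 inhibitor. The Fisher's exact test gave differences of -7.15 points in non-differentiated cells (adjusted p = 1.11e-10), -7.76 in DMSO (adjusted p = 8.42e-12) and -11.98 under EED inhibition (adjusted p = 6.96e-31). With the DNMT1 inhibitor it was 6.79 points above the rest (exact test, adjusted p = 5.51e-15). At 2500 bp on either side the differences became 1.28 points in non-differentiated cells, 1.77 in DMSO and -1.42 under EED inhibition. With at least 20 reads per CpG, only 10 of the 117 CpGs remained, the difference with the DNMT1 inhibitor was -0.395 points, and that in non-differentiated cells, -8.52 points, did not pass (exact test, adjusted p = 0.0248). On those CpGs the differences were larger in DMSO, at -14.7 points (exact test, adjusted p = 5.20e-06), and under EED inhibition, at -22.4 points (adjusted p = 2.50e-12).

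Single CpGs showed what the averages did not. In DMSO 92 of the 117 CpGs of the MEG3 promoter region, or 78.6%, lay between 20 and 80% methylation, against 42.5% of CpGs in the rest and 31.6% over the genome. The share in the MEG3 promoter region was 76.9% in non-differentiated cells and 76.1% under EED inhibition. The intergenic control region was more like the rest, with 36.5% of its 63 CpGs between those bounds in DMSO, 46.0% in non-differentiated cells and 42.9% under EED inhibition. In DMSO 16 of them, or 25.4%, were at 20% or less and 24, or 38.1%, at 80% or more, against 23.7 and 33.8% in the rest. In non-differentiated cells 13 were at 20% or less and 21 at 80% or more, and under EED inhibition 16 and 20, fewer at either end than the 29 and 27 between. Its average, like that of the rest, thus held low, intermediate and high CpGs, whereas the MEG3 promoter region was mostly intermediate CpG by CpG. Single CpGs also scatter by counting error at these depths.

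**Figure D1:**
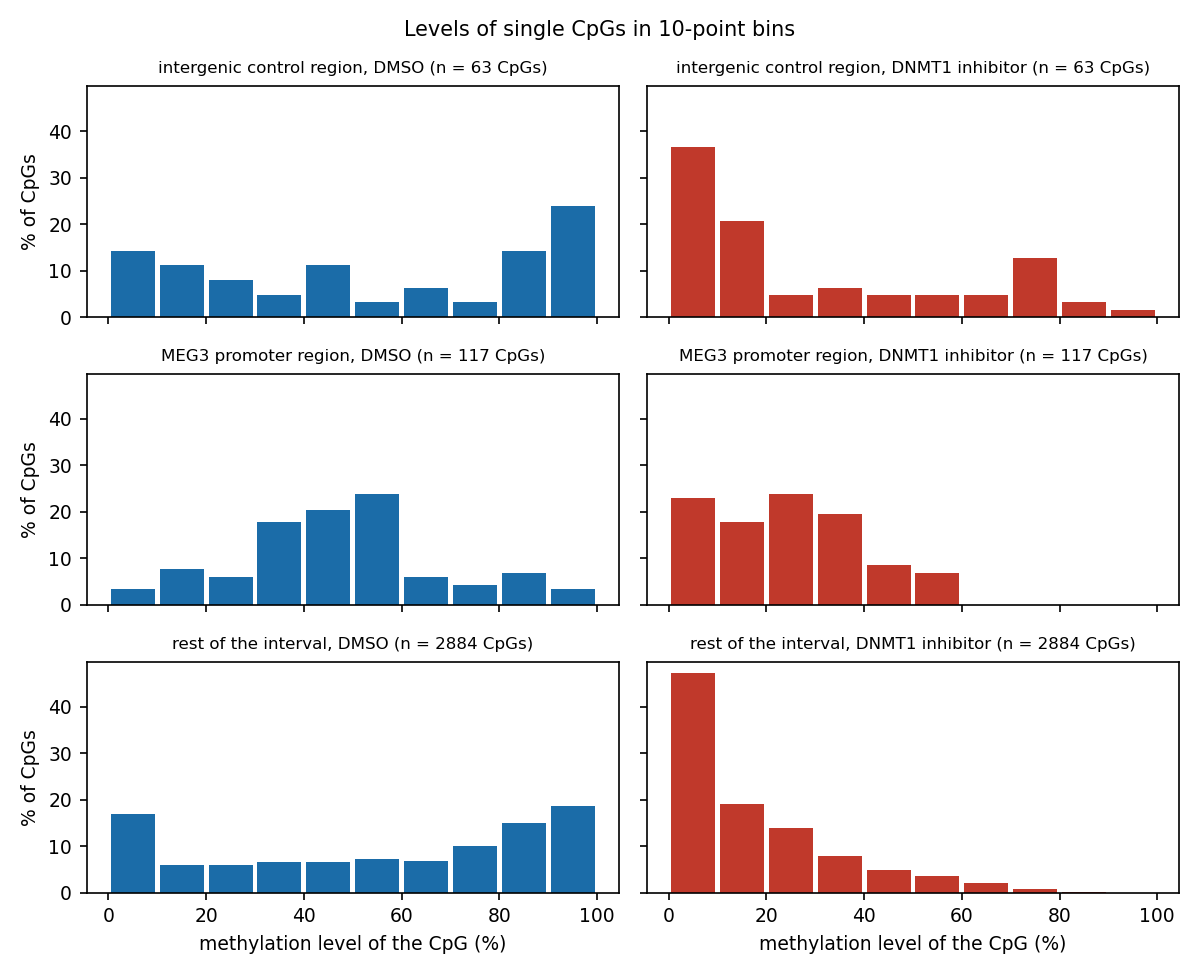
Share of CpGs (vertical axis, percent) in bins of 10 points of methylation level (horizontal axis, percent) for the intergenic control region, the MEG3 promoter region and the rest of the interval, in the DMSO library (left) and the DNMT1 inhibitor library (right). In DMSO most MEG3 promoter CpGs sit between 20 and 80%, while the intergenic control region and the rest have CpGs at both ends; with the DNMT1 inhibitor 3 of its 63 CpGs stay at 80% or more.

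The windows printed above show this at base resolution. In the centre of the intergenic control region 5 CpGs at bases 80 to 118 were at 77.3 to 100% in DMSO, and 3 CpGs at bases 152 to 187 were at 12.5 to 34.6%. The latter 3 were at 10.7 to 33.3% in non-differentiated cells and 7.89 to 37.8% under EED inhibition, so the dip stood at the same bases in all of them. From base 247 to base 274 the levels in DMSO were again 84.2 to 100%. The CpGs at bases 224 and 238 were at 79.2 and 81.8% in DMSO but at 11.5 and 42.3% under DNMT1 inhibition. High CpGs of this window thus did not all keep a high level. Over its 16 CpGs the window was at 72.8% in non-differentiated cells, 70.5% in DMSO, 49.6% under DNMT1 inhibition and 71.7% under EED inhibition. In the MEG3 promoter window the levels in DMSO ran from 16.7 to 58.3%, with no CpG near full methylation. That window was at 52.4% in non-differentiated cells, 38.7% in DMSO, 23.7% under DNMT1 inhibition and 40.3% under EED inhibition, from 10 to 21 reads per CpG.

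**Figure D2:**
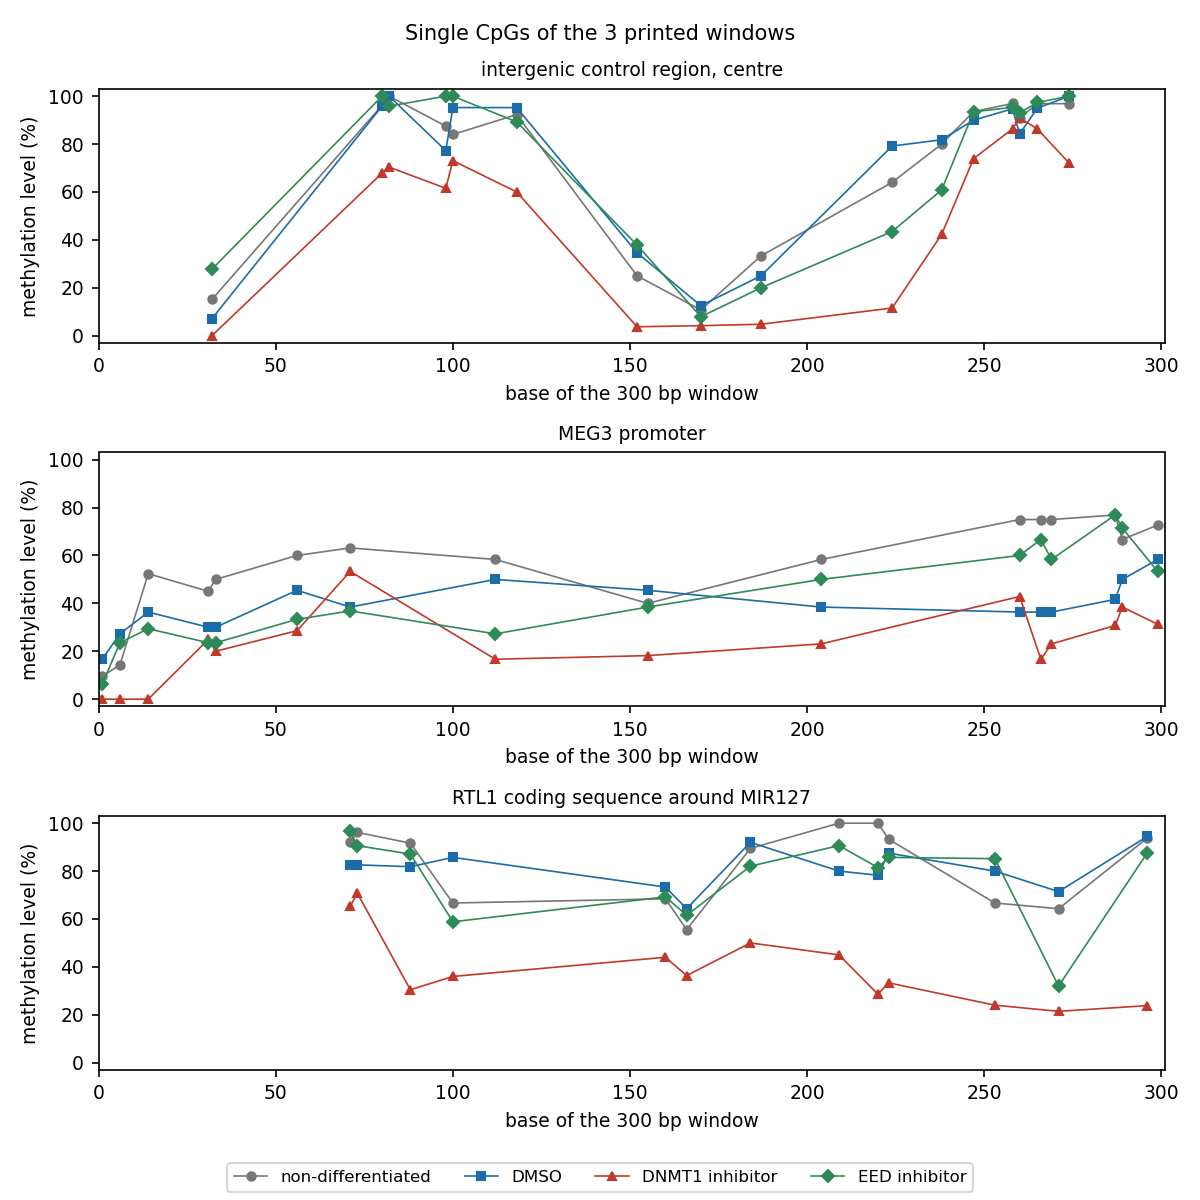
Methylation level (vertical axis, percent) of each shared CpG against its base in the 3 printed windows of 300 bp (horizontal axis), with 1 coloured line per library. In the intergenic control region the CpGs at bases 80 to 118 and 247 to 274 are high in every library, including 60 to 90.9% under DNMT1 inhibition, and those at bases 152 to 187 are low in every library. Those at bases 224 and 238 are at 79.2 and 81.8% in DMSO and at 11.5 and 42.3% under DNMT1 inhibition.

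Methylation was lower through the whole interval in the library with the DNMT1 inhibitor, at 16.6% against 53.6% in DMSO. By Fisher's exact test 1502 of 3064 CpGs, or 49.0%, were called lower, meaning at least 25 points of difference and an adjusted p below 0.01, against 63.6% of all shared CpGs. None was called higher. The share in the interval was also below that of all CpGs when every CpG was thinned to 10 reads, at 9.79% against 16.6%. Of 177 windows of 1 kb in the interval 154 were called lower, or 87.0%, against 81.3% of all windows. That order did not hold when each window's reads were divided by its CpG number, where 41.2% of the interval's windows were called against 66.2% of all. The control regions held fewer calls, with 19 of 63 CpGs called in the intergenic control region and 12 of 117 in the MEG3 promoter region, or 30.2% and 10.3%, against 51.0% in the rest. A call also depends on reads and starting level. In DMSO the MEG3 promoter region had 17.6 reads per CpG and 10.3% of its CpGs at 80% or more, against 23.3 reads and 33.8% in the rest. The intergenic control region was not lower in these, with 25.3 reads and 38.1%. How far they set the shares was not tested. A lower level with the inhibitor than in DMSO, called or not, was found at 57 of the 63 (90.5%), 108 of the 117 (92.3%) and 2604 of the 2884 CpGs of the rest (90.3%), so that share did not set the control regions apart.

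The control regions kept more of their methylation than the rest did. Kept methylation is the level with the DNMT1 inhibitor as a percent of the level in DMSO. It was 58.6% in the intergenic control region (counting interval 53.4 to 64.4%), 49.6% in the MEG3 promoter region (45.3 to 54.3%) and 29.8% in the rest (29.3 to 30.4%). In points, Fisher's exact test gave a fall of 20.7 in the intergenic control region (a difference of -20.7, adjusted p = 2.18e-31 over 21 tests) and of 23.3 in the MEG3 promoter region (a difference of -23.3, adjusted p = 2.92e-56). The rest fell by 37.8 points. The difference between those falls in points was not tested. The loss was compared between regions as odds, by the interaction of library and region in a binomial logistic model of reads. The odds ratio of methylation, DNMT1 inhibitor over DMSO, was 2.53 times as high in the intergenic control region as in the rest (binomial model, log odds difference 0.93 ± 0.0769 SE, adjusted p = 2.44e-33). For the MEG3 promoter region it was 2.11 times as high (binomial model, 0.75 ± 0.0694 SE, adjusted p = 3.96e-27).

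These p-values take each read at each CpG as independent, although 1 read can cover several CpGs. When the reads of a region were divided by its number of CpGs, the log odds differences were 0.84 and 0.81 and neither passed in the binomial model, with an adjusted p = 0.405 for both. Nor did any Fisher's exact test of the control regions, the rest, DLK1, MEG3 or RTL1, within or between libraries, pass on reads divided in this way. The value of the MEG3 promoter region also lost the call at a minimum of 20 reads, with 0.58 (binomial model, adjusted p = 0.0106) from its 10 remaining CpGs and 36.9% kept.

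Genome-wide, kept methylation was 27.9%, and it rose with the number of CpGs nearby. Among CpGs at 40 to 60% in non-differentiated cells it went from 16.5% with 1 to 2 CpGs within 250 bp to 29.7% with 21 or more. The control regions were therefore set beside all shared CpGs of the same classes of starting level and local CpG number. Those classes kept 30.4% for the intergenic control region and 33.1% for the MEG3 promoter region, below the 58.6% and 49.6% observed. For the rest of the interval the classes gave 29.6%, close to its own 29.8%. Among 116778 windows of 3001 bp over the genome with at least 30 CpGs and 35 to 65% methylation in DMSO, the median kept was 25.1%, and the 5th to 95th percentiles were 15.4 and 39.4%. Of these windows 0.0608% kept at least as much as the intergenic control region and 0.472% at least as much as the MEG3 promoter region. The windows were not matched by CpG number, and the MEG3 promoter region, with 117 shared CpGs, lay well above their minimum. Its share is therefore not a like comparison, and at a minimum of 20 reads it kept 36.9%. The placement among genome windows is a description of 1 pair of libraries, with no test.

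**Figure D3:**
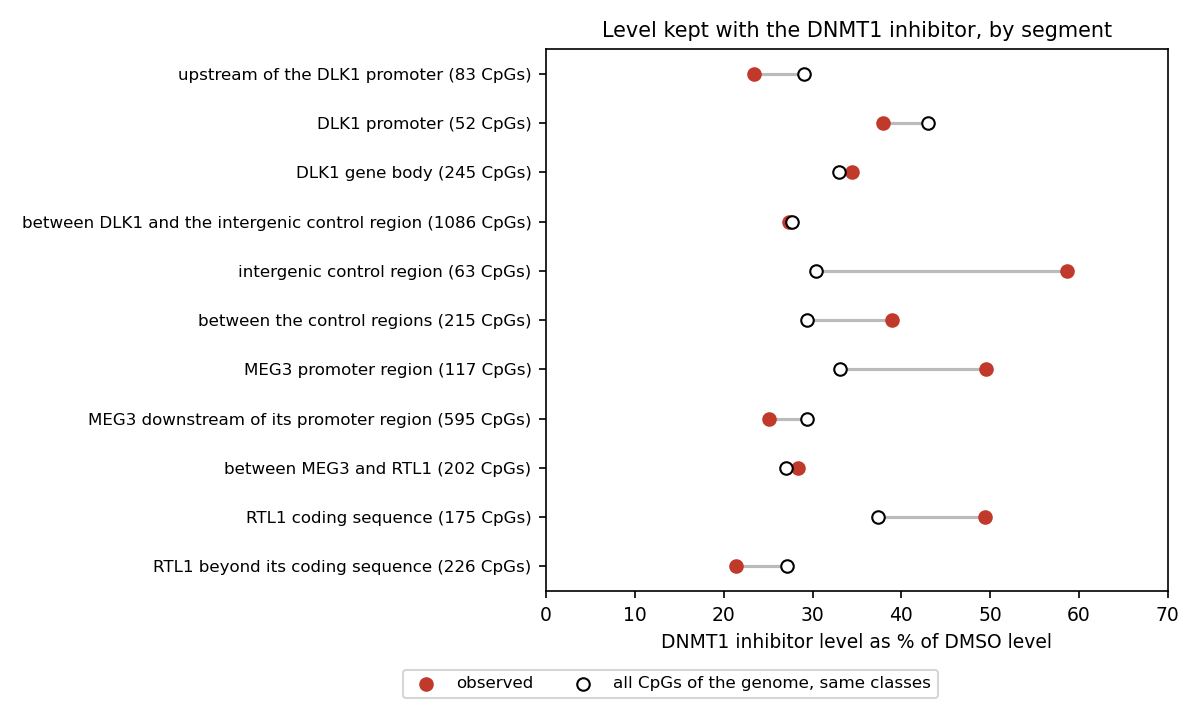
Level with the DNMT1 inhibitor as a percent of the level in DMSO (horizontal axis) for 11 segments of the interval in genome order, observed (filled) and over all shared CpGs of the same starting level and local CpG number (open). The intergenic control region stands at 58.6% against 30.4%, the MEG3 promoter region at 49.6% against 33.1% and the RTL1 coding sequence at 49.4% against 37.4%.

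What the intergenic control region kept sat mostly at its highly methylated CpGs. Its 21 CpGs at 80% or more in non-differentiated cells were at 91.9% in DMSO and 64.0% under DNMT1 inhibition, so 69.6% was kept. CpGs with that starting level kept 34.5% in the rest and 30.7% over the genome. The 29 CpGs that started between 20 and 80% kept 36.9%, and the 13 that started at 20% or less went from 8.71 to 1.63%. In the MEG3 promoter region the intermediate CpGs carried the result, with 52.4% kept over 90 CpGs, against 23.1% for such CpGs in the rest and 20.2% over the genome. The 14 highly methylated CpGs of the MEG3 promoter region kept 42.7%. These comparisons were matched by starting level only, not by the number of CpGs nearby. The median number within 250 bp was 25 in the MEG3 promoter region and 12 in the rest. Over the genome, CpGs at 40 to 60% in non-differentiated cells with 21 or more within 250 bp kept 29.7%.

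In steps of 500 bp the kept level of the intergenic control region was highest around its centre, at 64.2% just before it and 69.99% just after it. It was 32.3% at the upstream edge and 44.3% at the downstream edge, but it did not go on falling outwards, since the next steps upstream of the region were at 54.9 and 52.9%. Downstream of it they were at 30.2 and 33.4%. No such centre was seen in the MEG3 promoter region, with 33.6 to 63.2% over its 6 steps. The CpG with the highest level under the DNMT1 inhibitor in the intergenic control region was at chr14:100811109, base 260 of the printed window. It was at 90.9% in non-differentiated cells, 84.2% in DMSO, 90.9% under DNMT1 inhibition and 93.0% under EED inhibition, from 19 to 43 reads. At 22 reads under DNMT1 inhibition the counting error of a single CpG is wide.

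All 1 kb windows of the interval with at least 5 CpGs and at least 20% in DMSO, 165 in number, were ranked by the level kept. Their median was 25.5% and their range 6.54 to 62.2%, and 6 windows kept 50% or more. The top 2 were the middle windows of the intergenic control region, with 62.2 and 60.5%. The third, at 55.7%, lay in the RTL1 coding sequence (chr14:100882001-100883000), the fourth and sixth in the MEG3 promoter region with 54.7 and 52.1%, and the fifth, at 52.6%, in the DLK1 gene (chr14:100734001-100735000). That DLK1 window was highly methylated, at 80.5% in DMSO and 42.3% with the inhibitor.

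**Figure D4:**
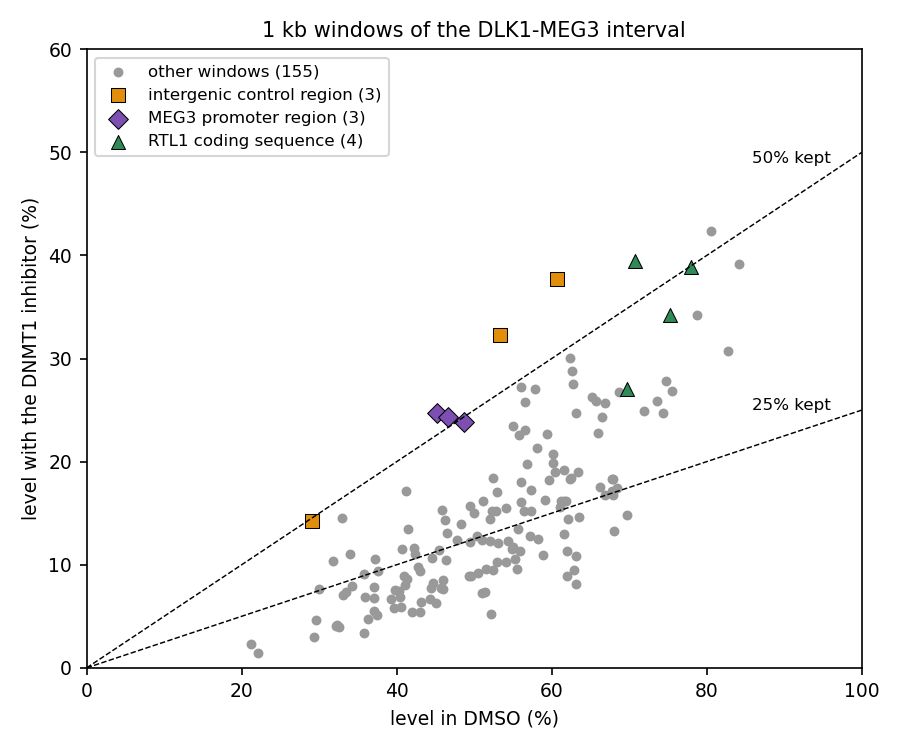
Level with the DNMT1 inhibitor (vertical axis, percent) against level in DMSO (horizontal axis, percent) for the 165 ranked windows of 1 kb, with dashed lines at 25 and 50% kept. The 3 windows of the intergenic control region and the 3 of the MEG3 promoter region lie on or near the 50% line or above it, at lower DMSO levels than the windows of the RTL1 coding sequence; most other windows lie near the 25% line.

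Over its shared CpGs DLK1 kept about as much of its methylation as its classes did in the gene body, and less at the promoter. That promoter, 1000 bp before to 500 bp after the start at chr14:100726892, was at 61.0% in non-differentiated cells, 66.2% in DMSO, 25.1% under DNMT1 inhibition and 68.7% under EED inhibition. Only 52 of its 142 reference CpGs were shared, so these values stand for the better covered part. The promoter fell by 41.1 points with the DNMT1 inhibitor (a difference of -41.1, Fisher's exact test, adjusted p = 8.50e-85) and kept 37.9%, against 43.0% for its classes. With every CpG listed in a library, 76 in DMSO and 52 with the DNMT1 inhibitor, its difference was -29.9 points. Whether it then kept less than its classes was not tested. The DLK1 gene body was at 60.2%, 57.9%, 19.9% and 57.8% in the 4 libraries and kept 34.4%, against 32.9% for its classes.

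Downstream of its promoter region MEG3 kept less than its classes. There, over 595 CpGs, the level was 52.0% in non-differentiated cells, 51.1% in DMSO, 12.8% under DNMT1 inhibition and 50.1% under EED inhibition, and 25.1% was kept against 29.3% for its classes. The 12 kb between the control regions are also inside the annotated MEG3 gene. They held 215 CpGs and kept 38.9%, against 29.3% for its classes. Upstream, the 1086 CpGs between DLK1 and the intergenic control region kept 27.4%, close to the 27.7% of their classes. Values more than 5 points above those of the classes were thus seen in the control regions, between them and in the RTL1 coding sequence, and in no other of the 12 segments, as the plot by segment shows for the 11 with at least 10 CpGs. The segment left out of it, RTL1 3′ of its coding sequence, held 5 CpGs and kept 30.9%, against 31.0% for its classes.

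**Figure D5:**
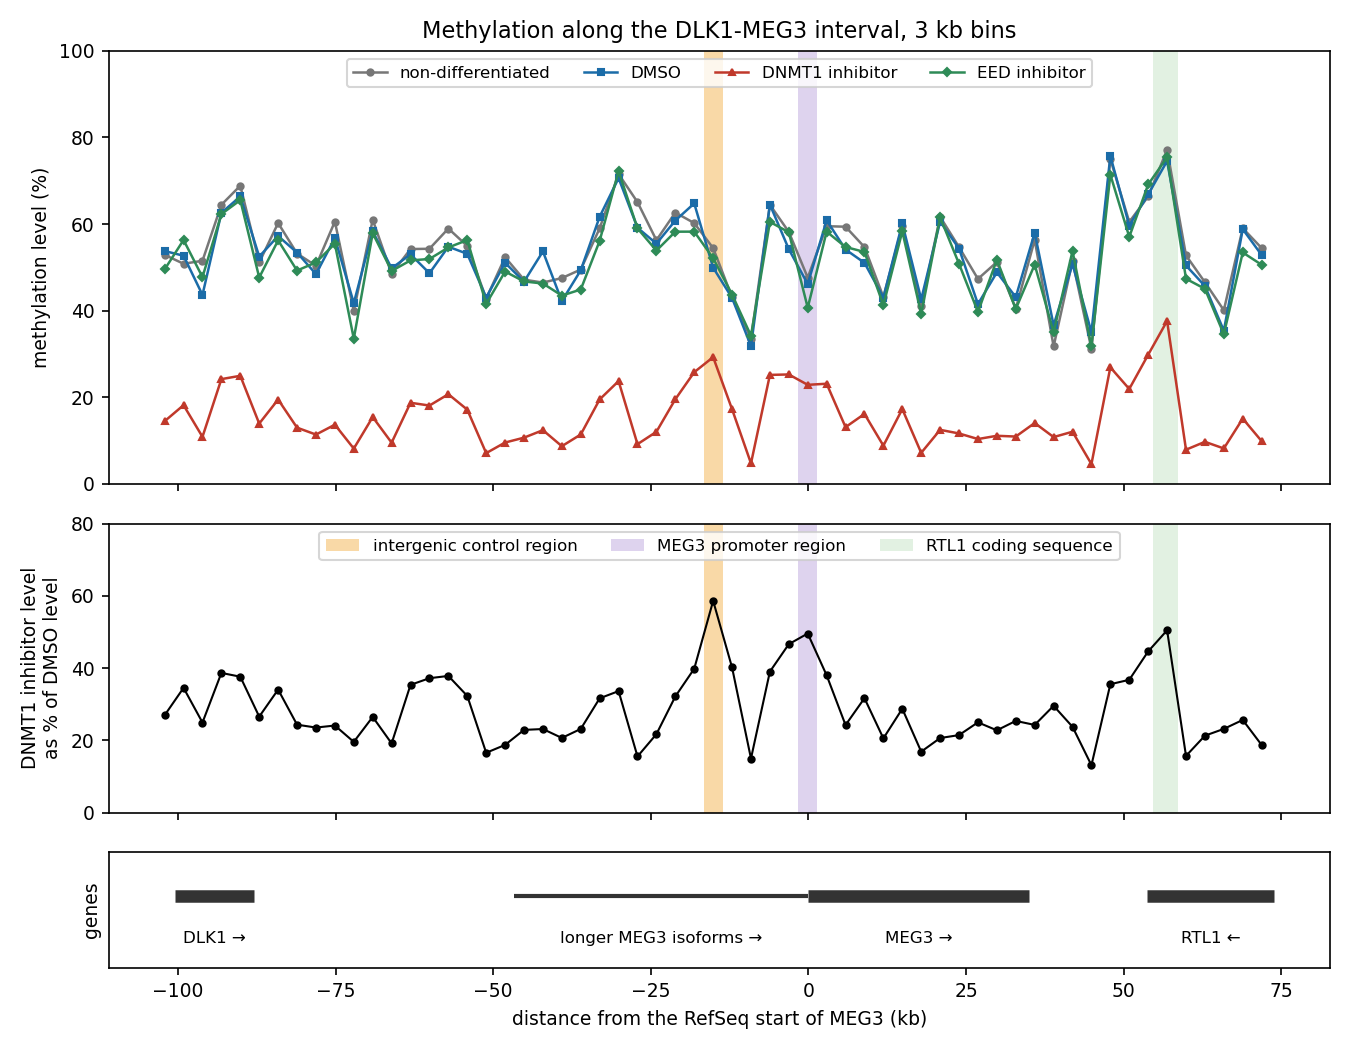
Methylation level in bins of 3 kb (upper panel, percent) for the 4 libraries and the level with the DNMT1 inhibitor as a percent of that in DMSO (middle panel), against distance from the RefSeq start of MEG3 in kb, with gene spans below. The lines of the 3 libraries without the DNMT1 inhibitor run together, and the kept level peaks at 58.6% in the intergenic control region.

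The RTL1 coding sequence was the most methylated segment of the interval in the libraries without the DNMT1 inhibitor. Over 175 CpGs at chr14:100880715-100884788 it was at 76.2% in non-differentiated cells, 74.5% in DMSO, 36.8% under DNMT1 inhibition and 75.2% under EED inhibition. It kept 49.4%, against 37.4% for its classes, and was singled out after its values were seen. In points it fell by 37.7, near the 37.8 of the rest, whereas the control regions fell by 20.7 and 23.3. RTL1 sequence beyond the coding part kept 21.4% over 226 CpGs, against 27.2% for its classes. The whole of RTL1 in the interval fell from 59.3 to 20.8%, a fall near that of the MEG3 gene body outside the control regions, from 53.1 to 15.1%.

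The coding sequence of RTL1 also holds microRNA genes on the opposite strand, whose transcripts pair with it. The annotation places 22 genes in the interval, 18 of them with shared CpGs, and 9 of 10 microRNA genes had at least 1. Of the 5 microRNA genes in the RTL1 coding sequence, MIR431 was at 84.2% in DMSO and 36.9% under DNMT1 inhibition over 9 CpGs. MIR127 went from 75.9 to 43.5% and MIR433 from 85.1 to 30%, over 3 CpGs each. The other two, MIR432 with 1 CpG and MIR136 with 2, were lower, at 38.5 and 40% in DMSO and 16.7 and 11.1% under DNMT1 inhibition. MIR770, inside MEG3, was at 48.8% in DMSO and 7.78% under DNMT1 inhibition over 3 CpGs. Levels thus varied among neighbouring microRNA genes, on few CpGs each. Of 17 mature sequences in RefSeq (GRCh38.p14), 8 held a shared CpG. These are shown with the seed in capitals, because their CpGs are the measured sites inside mature microRNAs. Their seeds all differ from each other.
hsa-miR-770-5p: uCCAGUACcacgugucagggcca
hsa-miR-337-5p: gAACGGCUucauacaggaguu
hsa-miR-431-5p: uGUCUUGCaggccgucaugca
hsa-miR-431-3p: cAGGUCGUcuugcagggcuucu
hsa-miR-433-5p: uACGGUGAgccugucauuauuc
hsa-miR-433-3p: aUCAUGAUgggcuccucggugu
hsa-miR-127-3p: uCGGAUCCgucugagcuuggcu
hsa-miR-136-3p: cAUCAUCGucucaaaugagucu
The 2 CpGs under hsa-miR-127-3p were at 62.2% in non-differentiated cells, 69.0% in DMSO, 40.4% under DNMT1 inhibition and 65.4% under EED inhibition. The single CpGs of the other 7 had 10 to 30 reads. In DMSO those of hsa-miR-433-5p, hsa-miR-433-3p, hsa-miR-337-5p and hsa-miR-431-3p were at 75% or more, and under DNMT1 inhibition they were at 11.1 to 38.1%. Those of hsa-miR-770-5p and hsa-miR-431-5p were at 37.5 and 41.7% in DMSO and listed at 0 under DNMT1 inhibition. The CpG under hsa-miR-136-3p was at 12% in non-differentiated cells and listed at 0 in the others.

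With the EED inhibitor the interval stood near its level in DMSO, at 52.3% against 53.6%. No CpG of the 3064 was called by Fisher's exact test in this comparison, against 0.00437% of all shared CpGs, and 180 members, 5.87%, had an unadjusted p under 0.05, against 5.46% of all. No window of 177 was called, against 0.0325% of all windows, and 30 had an unadjusted p under 0.05, or 16.9% against 12.6% of all windows. Of the 2 control regions the MEG3 promoter region passed the exact test, with 40.7% against 46.2% in DMSO (difference -5.47 points, 95% interval -8.36 to -2.56, adjusted p = 0.000481). Its value was -8.89 points at a minimum of 20 reads, where the call was lost (exact test, adjusted p = 0.0637), and with reads divided by CpGs it did not pass either. The intergenic control region differed by 2.19 points (interval -1.18 to 5.56, exact test, adjusted p = 0.249). Its difference was -1.61 points at a minimum of 20 reads, 0.456 at 1000 bp on either side and -0.0101 at 2500 bp, so its sign was not stable. Over all shared CpGs of the genome the level was also lower, at 59.3% against 60.3% in DMSO. The rest of the interval was lower by less than the MEG3 promoter region (exact test, difference -1.25 points, adjusted p = 7.41e-06). So was the MEG3 gene body outside the control regions, which is a part of the rest (exact test, -1.55 points, adjusted p = 0.000244). With reads divided by CpGs neither passed (exact test, adjusted p = 1 for both), and with an unweighted mean over CpGs the MEG3 gene body differed by -0.666 points. By the same exact test the difference for RTL1 was -1.68 points (adjusted p = 0.0239), for the DLK1 promoter 2.55 points (adjusted p = 0.249) and for the DLK1 gene body -0.115 points (adjusted p = 0.912), none of which passed. The DLK1 promoter depended on which CpGs were taken, with 10.98 points when every CpG listed in a library was used (exact test, adjusted p = 6.18e-08) and -0.544 points at a minimum of 20 reads (exact test, adjusted p = 0.876).

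The DMSO library and the library of non-differentiated cells were also close over the interval, at 53.6 and 54.5%. These libraries differed both in differentiation and in DMSO, which cannot be told apart here. No CpG was called, as over the genome (0% of all shared CpGs), with 83 CpGs or 2.71% at an unadjusted p under 0.05, against 2.55% of all. No window was called against 0.00115% of all, and 18 had an unadjusted p under 0.05, or 10.2% against 8.31% of all windows. In the region tests by Fisher's exact test the intergenic control region differed by -4.50 points (interval -7.92 to -1.07, adjusted p = 0.0181) and the MEG3 promoter region by -1.48 points (adjusted p = 0.355), which did not pass. In the same exact tests the difference of the DLK1 promoter was 5.21 points (adjusted p = 0.0221) and that of the DLK1 gene body -2.25 points (adjusted p = 0.0221), neither of which passed. At a minimum of 20 reads the DLK1 promoter passed with 9.80 points (exact test, adjusted p = 0.00968). The MEG3 promoter region was at -6.91 points in that setting and did not pass (exact test, adjusted p = 0.195). In the main exact tests the differences of the MEG3 gene body, -0.597 points, and RTL1, -1.07 points, had an adjusted p of 0.178 each. The rest passed with -0.858 points (exact test, adjusted p = 0.00336), a small difference resting on 64803 and 67227 reads. That call was lost at a minimum of 20 reads (-0.718 points, exact test, adjusted p = 0.100) and with reads divided by CpGs (exact test, adjusted p = 1). The 2 inhibitor comparisons share the DMSO library, and that library also enters this comparison.

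Other imprinted loci were read for comparison. The start of KCNQ1OT1, with 1500 bp on either side, was at 44.4% in non-differentiated cells, 46.3% in DMSO, 21.5% under DNMT1 inhibition and 46.7% under EED inhibition over 61 CpGs. That of SNURF was at 50.8%, 55.3%, 25.9% and 47.2% over 61 CpGs. The kept levels were 46.5% at KCNQ1OT1 and 46.8% at SNURF, close to the 49.6% of the MEG3 promoter region. The window of H19 held no CpG shared by the libraries and was not compared. The odds ratio in the intergenic control region was set against that at SNURF and passed (log odds difference 0.39 ± 0.111 SE in the same binomial model, adjusted p = 0.00200 over 4 tests). That call was lost with reads divided by CpGs (0.45, binomial model, adjusted p = 0.911), at a minimum of 20 reads (0.40, adjusted p = 0.0378) and at 1000 bp on either side (0.33, adjusted p = 0.0144). Against KCNQ1OT1 its difference was 0.27 ± 0.116 (binomial model, adjusted p = 0.0432), which did not pass. Its sign turned at 1000 bp on either side, to -0.41 (binomial model, adjusted p = 0.00662), and at a minimum of 20 reads, to -0.13 (adjusted p = 0.594). At 2500 bp it kept its sign and passed, with 0.38 (binomial model, adjusted p = 0.000412). In the binomial model the value for MEG3 did not pass against SNURF (0.20 ± 0.106, adjusted p = 0.0713) or KCNQ1OT1 (0.08 ± 0.111, adjusted p = 0.445), and at 1000 bp on either side the latter was -0.48 (adjusted p = 0.00176). No call in these 4 comparisons thus held over all the widths and read settings run, although the sign against SNURF was the same in each. Promoters of 10 genes that read, write or keep imprints and methylation were also read. Of these, 9 had shared CpGs, and their median went from 44.4% in DMSO to 8.85% under DNMT1 inhibition. Among them UHRF1, whose protein guides DNMT1 to newly made DNA, went from 66.0 to 8.85%, and SETDB1, a histone H3 methyltransferase, from 44.4 to 17.9%.

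Letters known to matter for imprints were searched on both strands of the control regions. TGCCGC, whose methylated form the zinc finger protein ZFP57 reads, matched 6 times in the MEG3 promoter region and 1 time in the intergenic control region. At least 6 matches occurred in 0.0697% of 969372 reference windows of 3001 bp, or in 2.74% of the 4482 windows with a like number of CpGs. At least 1 match occurred in 17.8% of all windows, and in 40.3% of the 31263 with a like number of CpGs as the intergenic control region. The matches with a shared CpG are printed with 12 bases on either side, on the strand of the match and with the match in capitals, because their CpGs can be set beside the others.
Intergenic control region, chr14:100811528-100811533, minus strand: gggcatgggaggTGCCGCccttcccacttc
MEG3 promoter region, chr14:100825220-100825225, minus strand: tgcgccgagcccTGCCGCggcctcggctcc
MEG3 promoter region, chr14:100825508-100825513, minus strand: agtcccgggctcTGCCGCttacaactcatg
MEG3 promoter region, chr14:100825927-100825932, minus strand: aggaaaaaattcTGCCGCagtgcccctggc
In the MEG3 promoter region the 3 matched CpGs together were at 58.5% in non-differentiated cells, 47.2% in DMSO, 40.4% under DNMT1 inhibition and 34.5% under EED inhibition. One by one, in the order printed, they went from 52.2% in DMSO to 42.9% under DNMT1 inhibition, from 47.1 to 27.8% and from 38.5 to 53.3%, so the level was lower at the first 2 and higher at the third. With 13 to 23 reads per CpG in DMSO and 14 to 18 under DNMT1 inhibition, no difference from the 114 other CpGs was tested and none is read from them. In the rest of the interval 28 CpGs in TGCCGC kept 35.9%, against 29.7% for the others, from 74.7 and 53.7% in DMSO. Over the genome the contrast was alike, with 35.5% kept in TGCCGC against 27.8% for the others, from 77.9 and 60.2% in DMSO. The single matched CpG of the intergenic control region was at 16% in non-differentiated cells, 18.2% under EED inhibition and listed at 0 in the other 2. GGNGGCAG, a core of the CTCF motif, matched 1 time in each region, and 51.7% of reference windows held it, or 77.7% and 83.2% of those with a like number of CpGs as the intergenic control region and the MEG3 promoter region. Neither motif is part of another, and a match is only a match of letters.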

How the data were processed

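The deposited tables list 1 CpG per line, with the count of reads covering it and the percent of those reads read as C or as T, per the file headers, which follow methylKit. Only CpGs with a deposited count of at least 10 reads are listed, both strands merged. The submitters' processing notes name Trim Galore 0.6.7, cutadapt 4.1, Bismark, Bowtie2 2.1.0, methylKit and hg38. Removal of duplicates is not given in the sources used here, and copies left in would make reads less independent. Methylated reads were recovered as coverage times percent, rounded. Levels are methylated reads over all reads of CpGs listed in all 4 libraries on chromosomes 1 to 22 and X.

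Two-sided Fisher's exact tests (SciPy 1.17.1, numba 0.67.0) were adjusted by Benjamini-Hochberg over all CpGs, all 1000 bp windows with at least 3 CpGs, or 21 region tests, and were checked on simulated data. The MEG3 gene body leaves out the control regions. Genes came from GENCODE 44. Named genes were DLK1, MEG3, RTL1, the other annotated genes and lists of imprinted, methylation and blood cell genes. The interval, the lists and the tests were chosen with earlier results of these data known, and segments, ranked windows, steps, genome windows and printed sequences after the values were seen. Alternatives were a minimum of 20 reads, other region widths, unweighted means, every listed CpG, reads divided by CpGs, thinning to 10 reads, other thresholds and 500 bp windows. A marker promoter of the planned lists is not reported here.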

Additional observations from a re-analysis of the deposited data

How the results depend on the processing

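The lower level with the DNMT1 inhibitor kept its direction in both control regions and the rest under every alternative run, and so did the smaller loss in both control regions against the rest. Dividing reads by CpGs could not have turned the direction of the levels, since it leaves the levels as they were. No paired analysis was possible because each group had 1 library, which also means that no library was left out. Alternatives for the smaller loss, and for the loss against other imprinted starts, were chosen after seeing the data.

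When each region's reads were divided by its CpG number, none of the Fisher's exact tests of regions and none of the binomial tests of the loss passed, with about as many reads left as 1 CpG has. That division leaves levels, and so differences in points, as in the main analysis by construction, and only the tests change. The differences concerned were -20.7 points (DNMT1 inhibitor minus DMSO) for the intergenic control region, -23.3 for the MEG3 promoter region and -37.8 for the rest. EED inhibitor minus DMSO was -5.47 points for the MEG3 promoter region and -1.25 for the rest, and DMSO minus non-differentiated was -0.858 for the rest. Against the rest, the intergenic control region was at -3.98 points in DMSO and 13.2 with the DNMT1 inhibitor. For the MEG3 promoter region it was -7.15 in non-differentiated cells, -7.76 in DMSO, 6.79 with the DNMT1 inhibitor and -11.98 under EED inhibition. With divided reads the loss terms were 0.84 and 0.81, and that of the intergenic control region against SNURF was 0.45.

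With a minimum of 20 reads, the intergenic control region minus the rest was 0.398 points in DMSO. That of the MEG3 promoter region was -8.52 in non-differentiated cells, -14.7 in DMSO, -0.395 with the DNMT1 inhibitor and -22.4 under EED inhibition. Its DMSO minus non-differentiated value was -6.91 and its EED inhibitor minus DMSO value -8.89. Its loss term was 0.58 and its kept level 36.9%. The rest differed by -0.718 between DMSO and the non-differentiated library and kept 27.3%. At 1000 bp on either side, the intergenic control region minus the rest was 5.52 in non-differentiated cells, 2.86 in DMSO and 4.54 under EED inhibition. At 2500 bp it was -3.72 in non-differentiated cells, the MEG3 promoter region minus the rest was 1.28, 1.77 in DMSO and -1.42 under EED inhibition, and the rest kept 29.1%. With unweighted means the intergenic control region differed by -0.400 after differentiation, -25.4 after DNMT1 inhibition and -1.42 after EED inhibition, stood at -0.463 against the rest in DMSO and kept 52.9%. With every CpG listed in the library its difference from the rest in DMSO was -2.63. Against SNURF the loss term of the intergenic control region was 0.40 at a minimum of 20 reads and 0.33 at 1000 bp. Against KCNQ1OT1 it was -0.41 at 1000 bp and 0.38 at 2500 bp, and that of the MEG3 promoter region was -0.48 at 1000 bp. CpGs called lower with the DNMT1 inhibitor numbered 721 of 1227 at a minimum of 20 reads (58.8%, against 68.8% of all CpGs) and 300 when thinned to 10 reads (9.79% against 16.6%). Windows called lower numbered 73 with divided reads (41.2% against 66.2% of all windows) and 266 of 323 at 500 bp (82.4% against 82.3%). The interval's share of windows was thus above that of the genome in the main analysis, below it with divided reads and level with it at 500 bp. The cause of these changes was not tested.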
